A study of Mus musculus with 2 samples.

Results

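Axon guidance genes encode the secreted or membrane-bound cues that steer growing axons and the receptors that read them. The genes described here are the 64 protein-coding genes of GENCODE M21, of 21911 such genes on the autosomes and chromosomes X and Y, whose symbols begin with Epha, Ephb, Efna, Efnb, Nrp, Robo, Slit or Ntn and a digit, with Sema and a digit, or with Plxna to Plxnd. Chromatin openness was measured by DNase-seq, in which DNase I cuts accessible DNA and the cut ends are sequenced. There was 1 group, hippocampus of male B6CASTF1/J mice aged 14 days, with 2 biological replicates. Such mice carry a C57BL/6 and a CAST/EiJ copy of each autosome, while all positions are on the C57BL/6J reference mm10. The labels call the tissue a layer of the hippocampus without naming the layer, mention 3 males for each replicate and give both replicates the same donor identifier, so the spread between the replicates may be partly technical. No other group was analysed here, so no conditions were compared.

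As background, ephrins are membrane-bound ligands of the Eph receptor tyrosine kinases, with A-type ephrins held by a lipid anchor and B-type ephrins crossing the membrane. Class 3 semaphorins are secreted and most act through neuropilins paired with plexins, whereas most membrane-bound semaphorins bind plexins directly. Slits are secreted repellents read by Robo receptors at the midline, and netrins attract or repel axons through Dcc and Unc5 receptors. In the hippocampus these cues are known for guiding mossy fibres, entorhinal axons and commissural axons to their layers, and several of them also act at synapses.

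Replicate 1 had 115072 peaks and replicate 2 had 95711 in the longer of the 2 peak lists deposited for each. Each peak carries the authors' value, a signal whose unit and scaling are not given, whose median was 0.594 in replicate 1 and 0.734 in replicate 2. Read totals were not in the files used here, so the depth behind each value is unknown. Of 12 hippocampal neuron markers, 11 had promoters open in both replicates, the exception being Slc17a7 with a peak of 0.926 in replicate 1. So did 3 of 8 interneuron, 5 of 8 astrocyte, 3 of 8 oligodendrocyte, 2 of 6 microglial and 1 of 6 endothelial markers, and 0 of 7 markers of tissues outside the brain. Of all 21911 protein-coding genes 62.6% had promoters open in both replicates. The share was 91.7% for the neuron markers, 62.5% for the astrocyte markers and lower for the other lists. Which cell types were present was not tested. In bulk tissue, a site open in more cells and a site more open in each cell cannot be told apart, and the cell types behind a peak of the genes below were not tested.

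Most axon guidance genes had an open promoter, but mostly of moderate value. A promoter was taken as 1000 bp either side of any start site of the gene in GENCODE's basic transcript set. Both replicates had a promoter peak at 57 of the 64 genes (89.1%), against 62.6% of all 21911 protein-coding genes. A promoter peak in 1 replicate only was found for Epha8, Slit3 and Plxnb3 (4.69%, against 3.45% of all genes). None was found in either replicate for Efna4, Robo4, Ntn5 and Sema3b (6.25%, against 33.9%). In the shorter of the peak lists 51 of the 64 were open in this sense (79.7%, against 57.6%). The cut rate passed a listed false discovery rate ceiling of 0.05 somewhere in the promoters of 58 of the 64 in both replicates (90.6%, against 63.3% of all genes). The promoters called open had a median value of 1.69, with quartiles of 1.30 and 2.42, as the mean of the replicates. All protein-coding genes called open in the same way had a median of 2.87, and 47 of the 57 guidance genes lay below it, while 2 of them, Efnb2 and Ephb3, were above percentile 90 of open promoters. Receptor genes, Robos, Ephs, plexins and neuropilins, were open at 26 of 29 with a median of 2.03, and ligand genes at 31 of 35 with a median of 1.32. From 250 bases before to 50 after the start site, the ratio of observed to expected CpG had a median of 0.664 over the 64 genes and 0.595 over all genes, and the GC content 65.3% and 56.7%.

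Replicate 2 gave the higher value at 54 of the 57 promoters, with a median ratio of replicate 2 to replicate 1 of 1.25. The ratio over all open genes was also 1.25, and 92.7% of them were higher in replicate 2, so the difference between the libraries was general. The SDs and ranges of promoter values given below include this difference. Across the 57 promoters the order of the values was close to the same in the replicates, with a Spearman rho of 0.96 over genes, which share their libraries and are not independent. In 5 of the 57, namely Ephb6, Efnb1, Ntn4, Sema4d and Plxna2, the highest promoter peaks of the replicates did not overlap, and their values compare different peaks. No other protein-coding gene started within 1000 bp of the highest promoter peak of any of the 64, although a noncoding gene did at 7.

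**Figure D1:**
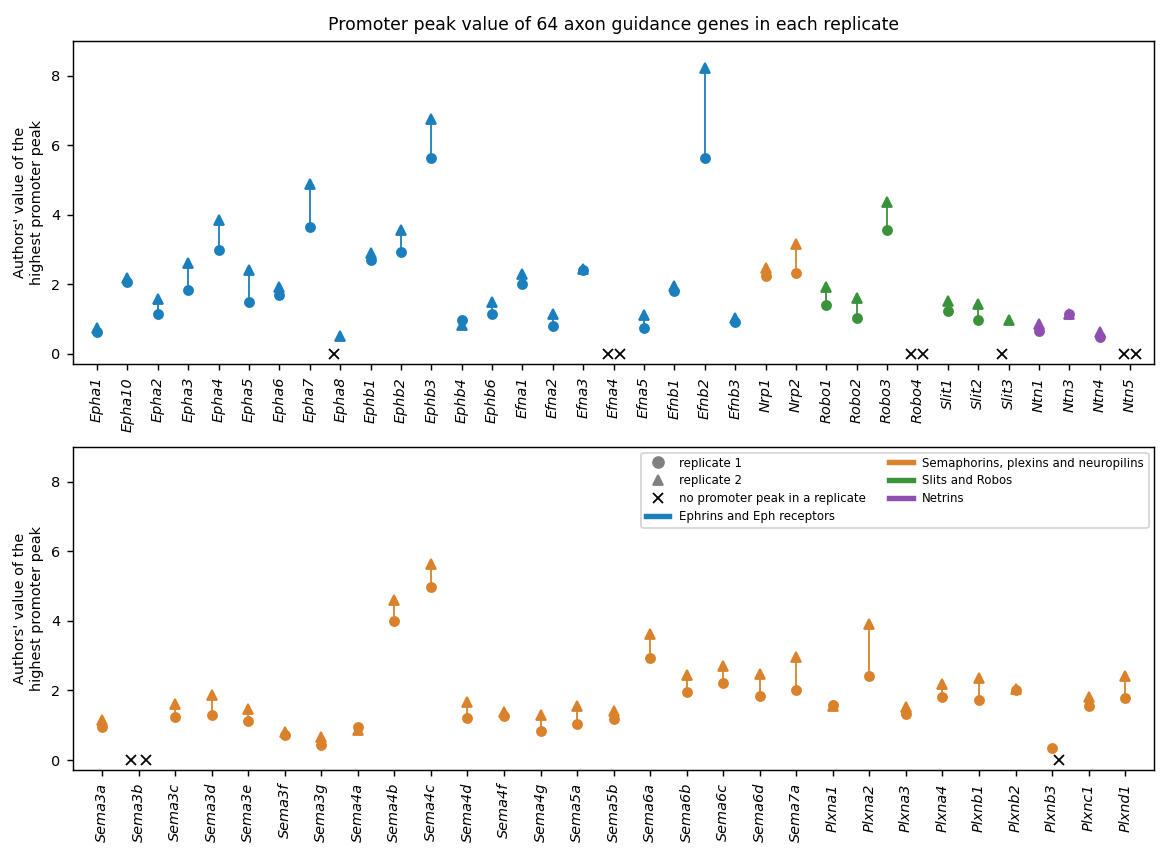
Authors' value of the highest promoter peak (vertical axis, no stated unit) of each of the 64 genes in replicate 1 (circles) and replicate 2 (triangles), coloured by signalling system, with crosses at 0 for a replicate without a promoter peak. Efnb2 (5.64 and 8.20) and Ephb3 (5.61 and 6.75) stand highest, and Efna4, Robo4, Ntn5 and Sema3b have crosses in both replicates.

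The promoters with the highest value in each of the 4 signalling systems are printed here because their footprints, short stretches protected from DNase I within an open site, show which bases were protected. Each is the plus strand of mm10, 5′ to 3′, centred on the overlap of the replicates' peaks, and reads the C57BL/6J reference rather than the CAST/EiJ allele. Capitals mark bases inside a footprint of both replicates, and bases in annotated exons were left out. For netrins the Ntn1 promoter is given, as that of Ntn3 lay in exons.
Efnb2, chr8:8661243-8661420: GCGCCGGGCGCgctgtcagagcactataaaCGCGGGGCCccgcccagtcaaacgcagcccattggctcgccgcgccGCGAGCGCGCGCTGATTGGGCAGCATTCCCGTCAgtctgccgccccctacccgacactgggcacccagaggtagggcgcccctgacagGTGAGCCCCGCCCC
Sema4c, chr1:36557161-36557359: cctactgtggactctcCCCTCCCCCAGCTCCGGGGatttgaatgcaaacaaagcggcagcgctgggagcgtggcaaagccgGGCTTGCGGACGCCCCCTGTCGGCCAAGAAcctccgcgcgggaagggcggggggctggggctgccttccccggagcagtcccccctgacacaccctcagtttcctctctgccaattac
Robo3, chr9:37430661-37430860: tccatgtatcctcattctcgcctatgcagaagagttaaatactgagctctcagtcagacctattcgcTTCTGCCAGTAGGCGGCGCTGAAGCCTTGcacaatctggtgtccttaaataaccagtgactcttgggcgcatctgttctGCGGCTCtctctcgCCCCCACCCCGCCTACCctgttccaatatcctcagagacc
Ntn1, chr11:68399831-68400030: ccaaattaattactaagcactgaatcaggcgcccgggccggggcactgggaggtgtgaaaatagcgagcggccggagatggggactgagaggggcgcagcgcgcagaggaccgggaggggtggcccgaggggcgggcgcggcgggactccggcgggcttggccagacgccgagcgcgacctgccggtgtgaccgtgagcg
Protected bases numbered 68 of 178 at Efnb2, 49 of 199 at Sema4c and 53 of 200 at Robo3, against 0 of 200 at Ntn1. GGGCGG, the GC box bound by Sp and Klf factors, occurred in the Efnb2, Sema4c and Ntn1 stretches, and at Efnb2 a copy lay wholly in capitals. On either strand it was in 56.1% of 200-base windows at the highest promoter peak of replicate 1, both for the 57 guidance genes and for the 13719 open genes. At least 1 footprint shared by the replicates lay in the promoter of 49 of the 64 genes (76.6%, against 56.3% of all genes), with 11 at Ephb3 and 10 at Sema4b. These shares are to be read beside the open promoters, 89.1% against 62.6%. All 49 genes were among the 57 open ones, while over all genes 12337 had such a footprint and 13719 an open promoter.

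Among the B-type ephrins, Efnb2 had the highest promoter of all 64 genes. Efnb2 (chromosome 8, 8617434 to 8661242), a ligand of EphB receptors and EphA4, stood at 5.64 in replicate 1 and 8.20 in replicate 2 (6.92 ± 1.81, SD, n = 2). Efnb1 on chromosome X reached 1.81 and 1.95, and Efnb3, the ephrin known as a midline barrier to corticospinal axons, 0.919 and 1.03. Efnb3 is a gene of 6.11 kb with 3 shared open sites outside promoters, the highest at 1.98 and 2.27 in its downstream flank within Dnah2. These 3 genes thus spanned a wide range of promoter values, and both replicates gave the same order, although the Efnb1 peaks of the replicates did not overlap. The effect of copy number in males on the values of X-linked Efnb1, Plxna3 and Plxnb3 was not tested.

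The A-type ephrins were more even. Efna3 had promoter values of 2.40 and 2.44 and Efna1 of 2.02 and 2.29, and both lie in a cluster on chromosome 3 with Efna4. Efna4 (chromosome 3, 89333390 to 89338028) had no promoter peak in either replicate and no listed stretch under the false discovery rate ceiling of 0.05. It had 2 shared sites in its upstream flank, inside the neighbouring gene Adam15, of which the higher stood at 2.23 and 1.91. Efna2 had 0.799 and 1.15 at its promoter and 2 sites downstream. Efna5, a ligand known for repelling axons in topographic maps, had a low promoter at 0.735 and 1.11 but 8 shared sites outside promoters, one of them an intronic site of 1.74 and 2.29.

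EphA receptors had 8 of 9 promoters open in both replicates. Epha7 (chromosome 4, 28813131 to 28967499) was highest at 3.65 and 4.88 (4.27 ± 0.873, SD, n = 2). Epha4 (chromosome 1, 77367185 to 77515088), a receptor for both ephrin classes that is known for its place in hippocampal synapses, had 2.98 and 3.84. Epha3 had 1.85 and 2.61. Epha7 exceeded Epha4 in each replicate. The ranges of their values, which include the general difference between the libraries, overlapped. The lowest open promoter of the family was that of Epha1 at 0.615 and 0.734, and Epha2, Epha5, Epha6 and Epha10 had means of 1.36 to 2.12. At Epha8 a promoter was called in replicate 2 alone, at 0.497. Epha6, of 952 kb, had 10 shared sites and Epha5 had 5, whereas Epha1, Epha2 and Epha10 had 0.

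EphB receptors, the family that clusters NMDA receptors at synapses, had all 5 promoters open. Ephb3 (chromosome 16, 21204755 to 21223305) led at 5.61 and 6.75 (6.18 ± 0.803, SD, n = 2). Ephb2 had 2.91 and 3.56 and Ephb1 2.71 and 2.91, while Ephb6, which lacks kinase activity, and Ephb4 had means of 1.31 and 0.911. Sites outside promoters were split among them: Ephb2 had 19 and Ephb1 had 17, whereas Ephb4 had 1 and Ephb3 and Ephb6 had 0. Ephb2 (chromosome 4, 136647539 to 136835988) carried 9.11 sites per 100 kb of its window, which is the gene with 10 kb on each side. That was above 95.6% of all protein-coding genes, and Ephb1 at 3.76 was above 73.7%.

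Promoters were open in both replicates at 19 of the 20 semaphorins. Sema4c (chromosome 1, 36548639 to 36558349), a membrane-bound ligand of plexin B2, had 4.99 and 5.65 (5.32 ± 0.470, SD, n = 2). Sema4b had 4.0 and 4.60, and Sema6a, whose transmembrane protein binds plexins A2 and A4, had 2.93 and 3.62. The other 16 open promoters had means of 0.553, for Sema3g, to 2.48, for Sema7a. The 6 open genes of the secreted class 3 all lay below the median of 1.69, with means of 0.553, for Sema3g, to 1.58, for Sema3d. Sema6d and Sema6a had the most shared sites outside promoters of the family, 10 and 8.

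Sema3b was the 1 semaphorin without an open promoter. It (chromosome 9, 107597674 to 107609229) had no peak within 1000 bp of any basic start site in either replicate. Yet its window held the highest non-promoter site of all 64 genes, 3.61 kb upstream at 107612721 to 107612960, with 5.64 and 7.45 (6.54 ± 1.28, SD, n = 2). A second site in an intron, at 107602121 to 107602320, reached 3.96 and 4.76 and had 4 shared footprints. These means exceeded 99.9% and 99.4% of all 47907 shared sites outside promoters. In the comprehensive annotation, which holds 14 start sites for Sema3b, the intronic site falls within a promoter.

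Plexins had 8 of 9 promoters open in both replicates. Plxna2, a receptor for Sema6a and, with neuropilins, for class 3 semaphorins, had 2.43 and 3.91 (3.17 ± 1.05, SD, n = 2) at peaks that did not overlap. Plxnd1, the receptor of Sema3e, had 1.77 and 2.42, and Plxnb1, a receptor of Sema4d, 1.72 and 2.37. The other 5 had means of 1.42, for Plxna3, to 2.02, for Plxnb2. Plxnb3 on chromosome X was called in replicate 1 alone, at 0.346. Plxna4 (chromosome 6, 32144268 to 32588192) had 20 shared sites outside promoters, while Plxna3 and Plxnb3 had 0. Both neuropilins were open. Nrp1 had 2.24 and 2.45 and Nrp2 had 2.31 and 3.16. Nrp2 was higher in each replicate, and the ranges, which include the difference between the libraries, overlapped. Nrp2, the coreceptor for Sema3f, had 10 shared sites against 5 at Nrp1.

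The Slit genes had promoters of low value, with a median of 1.28 over the open ones, and many other open sites. Slit1 had promoter values of 1.22 and 1.52 and Slit2 of 0.962 and 1.44. Slit1 was higher in each replicate, and the ranges, which include the difference between the libraries, overlapped. For Slit3 (chromosome 11, 35121224 to 35708507) replicate 2 alone had a peak there, at 0.970. Slit3 had 29 shared sites, the most of the 64 genes and more than 99.9% of all protein-coding genes, 28 of them touching the gene body of 587 kb. Slit1 had 11 and Slit2 had 7. Per 100 kb of window Slit3 had 4.78 sites, above 83.0% of all protein-coding genes, Slit1 had 6.73, above 90.1%, and Slit2 had 2.03, above 55.3%. With the start sites of the comprehensive annotation, Slit3 had a promoter peak in both replicates, at 0.771 and 0.970.

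Robo receptors had 3 of 4 promoters open. Robo3 (chromosome 9, 37415669 to 37433246), the divergent Robo that sets midline crossing, had 3.57 and 4.37 (3.97 ± 0.565, SD, n = 2). With a promoter of 500 bp Robo3 was no longer called open in both replicates. Robo1 had 1.39 and 1.92 and Robo2 had 1.03 and 1.61. The only basic start site of Robo1 lay inside the gene, with its promoter window at 72662149 to 72664149 of chromosome 16. Robo1 begins at 72308306, and that end was not counted as a promoter. Robo4, a Robo known from endothelium, is the neighbour of Robo3 and had no promoter peak and no listed stretch under the ceiling in either replicate. Both of its shared sites, the higher at 1.31 and 1.34, also counted for Robo3 because the windows of these genes overlap. They were the only sites counted for more than 1 of the 64 genes. Of the 6 endothelial markers, Cldn5, Tie1 and Cdh5 had no promoter peak in either replicate. Pecam1 had one of 0.283 in replicate 1 alone, Flt1 one of 0.530 in replicate 2 alone, and Kdr had 0.516 and 0.783. The part of endothelial cells in the Robo4 result was not tested. Robo1 and Robo2, with 13 and 9 shared sites, are long genes of 738 kb and 520 kb, and per 100 kb they had 1.72 and 1.67 sites.

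Netrin promoters had the lowest family median, 0.761. Ntn3 had 1.13 and 1.15, Ntn1, the netrin that attracts commissural axons, 0.658 and 0.864, and Ntn4, a netrin of basement membranes, 0.481 and 0.628. Ntn5 had no promoter peak, but a site of 2.93 and 3.19, centred 1.10 kb upstream of its nearest start, lay inside Sec1. That site ended at 45683020 of chromosome 7, right beside the Ntn5 promoter window, which began at 45683022. With a promoter of 2500 bp Ntn5 had a promoter peak in both replicates. Stretches under the false discovery rate ceiling reached into the 1000 bp promoter window of Ntn5 in both replicates, over 255 and 163 bp. Ntn1 (chromosome 11, 68209364 to 68400823) had 10 shared sites outside promoters and Ntn3 had 3 around a gene of 5.68 kb.

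Open sites outside promoters were common around guidance genes. Peaks outside every annotated promoter were joined across replicates where they overlapped by at least 1 bp and counted in the gene and 10 kb on each side. At least 1 such shared site was found for 55 of the 64 genes (85.9%, against 56.4% of all genes), at least 5 for 24 (37.5%, against 8.82%) and at least 10 for 10 (15.6%, against 2.05%). The median was 3 sites per guidance gene and 1 per protein-coding gene. Guidance genes are longer, with a median length of 39.9 kb against 17.4 kb, and the number of sites followed the length of the window (Spearman rho 0.67 over the 64 genes and 0.48 over all genes, which overlap one another in part). Under 50 kb the medians were 2 sites for 35 guidance genes and 0 for 16908 genes in all. From 50 to 200 kb they were 6 for 14 guidance genes and 2 for 4006 genes, and from 200 kb upward 8 for 15 guidance genes and 7 for 997 genes. The median of the guidance genes was thus above that of all genes in both length classes below 200 kb and close to it in the class above. Lengths within a class were not matched. Over the joined windows, guidance genes held 2.82 sites per 100 kb and all protein-coding genes 2.27. Promoter value and number of sites were not ordered alike (Spearman rho 0.06 over the 57 open guidance genes, -0.11 over the 13719 open genes, which share their libraries).

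**Figure D2:**
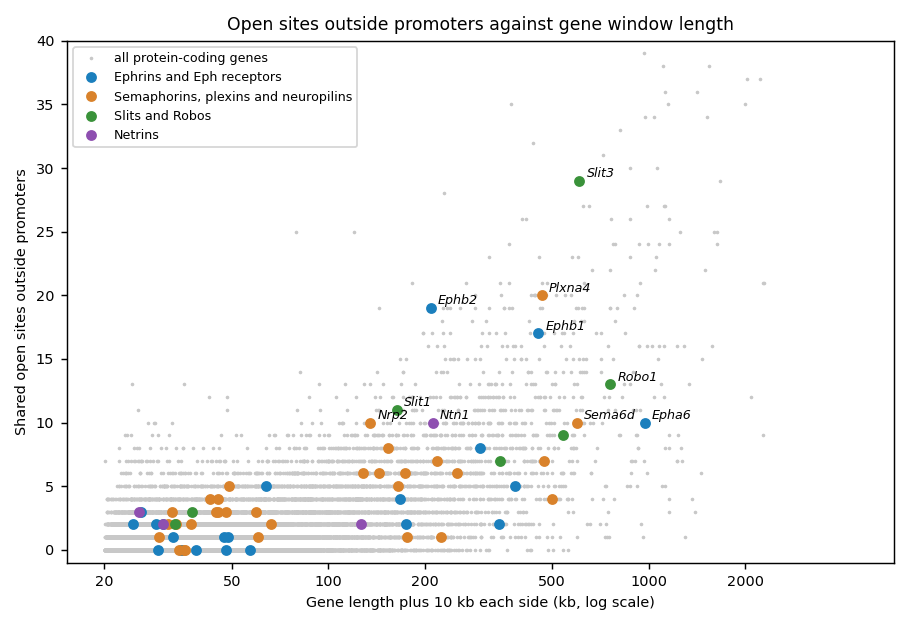
Shared open sites outside promoters (vertical axis) against gene length with 10 kb added on each side (horizontal axis, kb, log scale) for the 64 guidance genes, coloured by system, and all protein-coding genes in grey, of which 3 lie above the axis limit of 40. Slit3 with 29 sites, Plxna4 with 20 and Ephb2 with 19 are the guidance genes with the most sites.

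The 308 distinct sites gave 310 pairs of site and gene. Of the pairs, 219 (70.6%) lay in introns, 33 touched an exon, 33 lay upstream and 25 downstream. The median distance from the nearest start site of the gene was 70.4 kb, 79 pairs lay within 10 kb, and the farthest was an intronic site of Epha6 at 922 kb. Site values had a median of 0.902, against 0.727 for all 47907 shared sites outside promoters. A footprint shared by the replicates lay in 168 of the 308 (54.5%, against 51.4% of all such sites).

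At 17 of the 64 genes (26.6%, against 8.95% of all genes) a promoter peak was present in both replicates and a shared site elsewhere was higher than it in both. Among genes open in both replicates these were 17 of 57 and 1960 of 13719. Guidance genes also had more shared sites per gene (median 3 against 1) and lower open promoters (median 1.69 against 2.87). Of the shared sites higher than the promoter, the highest were those of Epha4, Sema5a and Plxnc1. Epha4 had one of 4.71 and 5.56, 1.32 kb upstream, at 77516321 to 77516500 of chromosome 1. Sema5a had one in an intron 1.37 kb from its start, at 32246081 to 32246280 of chromosome 15, with 3.50 and 4.61 against promoter values of 1.04 and 1.57. Plxnc1, the receptor of Sema7a, had one in an intron 115 kb from its start, at 94829461 to 94829680 of chromosome 10, with 3.39 and 4.11 against promoter values of 1.56 and 1.83. The sites of Epha4 and Sema5a lay just beyond the 1000 bp that defined a promoter, whereas that of Plxnc1 was remote and held 5 shared footprints. Sema4a likewise had a site of 2.38 and 3.55, 6.14 kb upstream, against 0.955 and 0.856 at its promoter.

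**Figure D3:**
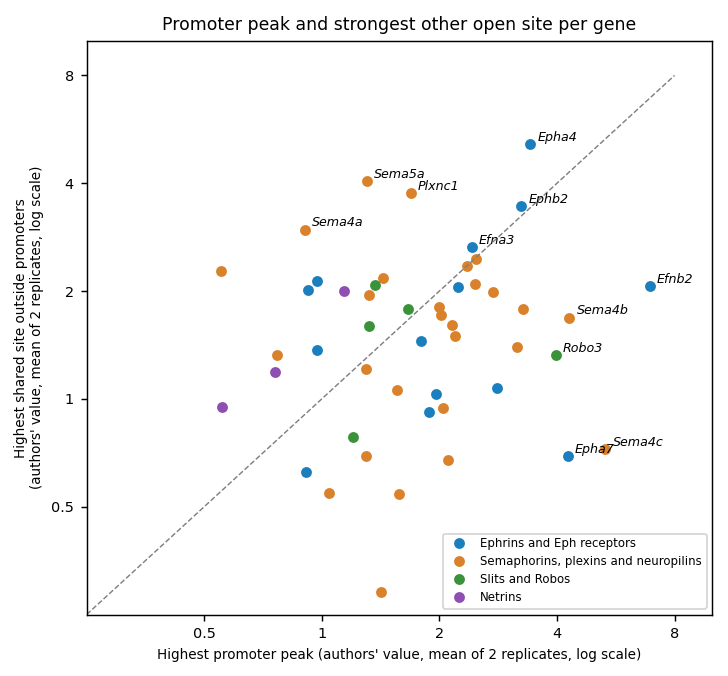
Highest shared site outside promoters against highest promoter peak for guidance genes with both (authors' value, mean of 2 replicates, both axes on a log scale), coloured by system, with a dashed line where they are equal. Sema5a, Plxnc1, Sema4a and Epha4 lie above the line, and Efnb2, Sema4c and Epha7 lie far below it.

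The highest sites outside promoters of each system are printed in the same way, for comparison with the promoters above. For ephrins it is an intronic site of Ephb2 with 2.74 and 4.15, as the higher one of Epha4 lay in exons of the annotation. That of Slit3 lay in an intron 466 kb from the start, with 2.12 and 2.23.
Ephb2, chr4:136678571-136678770: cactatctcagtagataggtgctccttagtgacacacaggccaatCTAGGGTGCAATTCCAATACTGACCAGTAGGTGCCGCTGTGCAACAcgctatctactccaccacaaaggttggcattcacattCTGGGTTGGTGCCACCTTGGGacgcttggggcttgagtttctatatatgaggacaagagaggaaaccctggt
Sema3b, chr9:107612731-107612930: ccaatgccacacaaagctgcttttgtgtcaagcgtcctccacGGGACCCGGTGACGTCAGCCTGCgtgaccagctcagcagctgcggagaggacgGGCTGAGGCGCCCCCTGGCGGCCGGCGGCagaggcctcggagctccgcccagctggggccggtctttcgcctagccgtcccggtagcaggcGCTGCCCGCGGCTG
Slit3, chr11:35587231-35587430: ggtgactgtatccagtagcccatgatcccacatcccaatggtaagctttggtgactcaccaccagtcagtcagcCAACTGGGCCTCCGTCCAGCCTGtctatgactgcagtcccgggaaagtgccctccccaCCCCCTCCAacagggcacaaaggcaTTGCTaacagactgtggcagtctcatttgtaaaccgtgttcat
Ntn5, chr7:45682821-45683020: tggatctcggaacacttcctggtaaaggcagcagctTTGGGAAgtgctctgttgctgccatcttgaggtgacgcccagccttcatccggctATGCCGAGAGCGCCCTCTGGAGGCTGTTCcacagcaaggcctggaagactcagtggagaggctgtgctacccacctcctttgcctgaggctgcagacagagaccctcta
The Sema3b site held TGACGTCA, the cyclic AMP response element, wholly in capitals, a motif present in 2 of the 308 guidance sites and 0.349% of all shared sites outside promoters. The Slit3 site held TGANTCA, the AP-1 motif, outside capitals. That motif was in 5.52% of guidance sites and 7.09% of all. The E-boxes CAGATG and CAGCTG were in 28.6% and 22.1% of guidance sites, against 26.1% and 21.4% of all. A core of the motif of CTCF, the insulator protein, was in 4.22% against 6.99%. A looser form of it with fewer fixed bases was chosen after these sequences had been seen, and lay wholly in capitals in the Sema4c and Robo3 promoters and in the Sema3b and Ntn5 sites. This form was in 18.5% of guidance sites against 18% of all, and in 11 of the 57 open guidance promoters (19.3%) against 11.8% of open promoters. The Sema4c and Robo3 promoters are among the 57, so the promoter share is not independent of that choice. The core of the motif was in 1.75% of the open guidance promoters against 1.54% of open promoters. Windows were 200 bases, both strands were searched, and the CTCF forms overlap. In the promoter windows CCGGAAGT, the ETS motif, was in 0 of 57 against 6.42%, and the Mef2, NFI, RFX, Egr and NRF1 motifs were each in 0 of 57 against at most 1.92%. Such matches describe letters and show no binding.

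Several guidance genes opened more than 1 promoter. Of the 64, 16 had start sites in 2 or more separate windows, and 8 (12.5%, against 3.33% of all genes) had at least 2 windows open in both replicates: Ephb3, Robo3, Ntn1, Sema4a, Sema4b, Sema6b, Sema6d and Plxnb2. Only genes annotated with 2 or more windows could be counted. The upper quartile of windows per gene was 1.25 for guidance genes and 1 for all genes. Sema6d (chromosome 2, 124089969 to 124667770) had 3 open windows. Its first, in the order of transcription, had 1.11 and 1.21, the second 1.84 and 2.48 and the third 0.594 and 0.620, so that the internal second window was highest in both replicates. Robo3 was also highest at its second window, 3.57 and 4.37 against 0.884 and 0.986 at the first, but was not called open with a promoter of 500 bp. Ephb3 and Sema4b ran the other way, with 5.61 and 6.75 against 2.06 and 2.40 at Ephb3 and 4.0 and 4.60 against 1.56 and 2.14 at Sema4b. At Ntn1 the windows were close, 0.658 and 0.864 against 0.629 and 0.791. Sema3a was open only at its second window, at 13398309 to 13400309 of chromosome 5. Its first window, at 13395784 to 13397784, also lay inside the gene, which begins at 13125414.

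**Figure D4:**
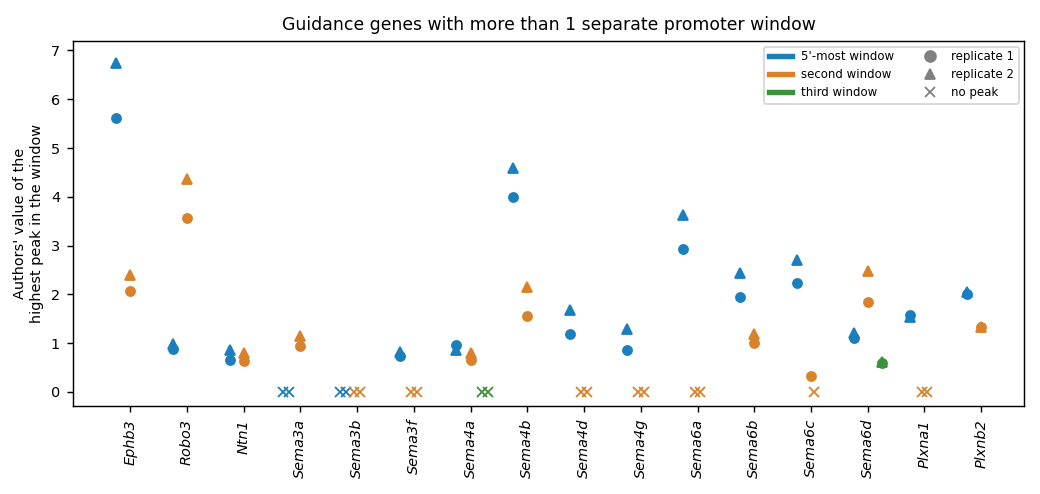
Authors' value of the highest peak (vertical axis, no stated unit) in each separate promoter window of the 16 guidance genes with more than 1 window, in replicate 1 (circles) and replicate 2 (triangles), coloured by window in the order of transcription, with crosses at 0 for no peak. The second window is highest at Robo3, Sema6d and Sema3a, and the first at Ephb3 and Sema4b.

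Partner and effector genes of the same pathways were open almost throughout. Of 56 such genes on 5 lists, promoters were open in both replicates at 54 (96.4%, against 62.6% of all genes). All 11 netrin partners were among them, led by the Dcc relative Neo1 (3.34 and 4.44), Lrrc4c (2.70 and 3.37) and Unc5b (2.50 and 3.10), and the netrin receptor Dcc had 1.82 and 2.05 with 12 shared sites. Of 15 semaphorin effectors 14 were, led by Dpysl2 (5.42 and 7.04), which encodes the collapsin response mediator CRMP2, then Cdk5 (5.21 and 5.74) and Fyn (4.50 and 5.11). Mical3 had no promoter peak in either replicate. Of 11 Eph effectors 10 were, led by the Rac activator Tiam1 (5.98 and 7.02), then Itsn1 (4.29 and 5.27) and Sipa1l1 (3.50 and 4.26), and Grip2 had a peak in replicate 1 only (0.523). All 8 Slit-Robo effectors were open, led by the adaptor Nck1 (7.0 and 8.36), Srgap2 (5.92 and 6.99) and Sos1 (4.89 and 5.67). All 11 shared cytoskeletal and adhesion genes were open too, led by Rhoa (4.99 and 6.37), Limk1 (4.8 and 5.42) and Trio (4.79 and 5.26). At Itsn1, Srgap2 and Rhoa another protein-coding gene started within 1000 bp of the peak. So it did at Draxin, a netrin partner (0.651 and 0.775, near Mad2l2), and at Rras, a semaphorin effector (1.40 and 1.43, near Scaf1). The median number of shared sites of the cytoskeletal and adhesion genes was 0, against 8 for Eph effectors, 6 for netrin partners, 4 for Slit-Robo effectors and 3 for semaphorin effectors. The lists were not matched for gene length, which the number of sites followed above. The cytoskeletal and adhesion genes ran from 4.75 kb (Cfl1) to 295 kb (Trio), and Eph effectors from 65.7 kb (Grip2) to 633 kb (Grip1).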

How the data were processed

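DNase-seq of hippocampus was analysed from 2 replicates of 1 group. Per the deposited file descriptions, each file came from an alignment of 1 library to mm10, with peaks and footprints for each replicate; aligner and caller: not given in the sources used here. The value per peak is a signal deposited by the authors, of unknown scaling. The files of false discovery rates (p-value type) deposited by the authors list stretches under 0.05 of the cut rate, and every footprint carries 0.01.

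Genes and start sites came from the basic transcript set of GENCODE M21, with 1 model per symbol, and sequence from GRCm38.p6. The highest promoter peak was taken per replicate over all start sites. Footprints were shared if at least 50% of a replicate 1 footprint was covered in replicate 2. Interval code was tested on simulated data. Tools were Python 3.11.15, numpy 2.4.6, scipy 1.17.1, pysam 0.24.0, bedtools 2.31.1 and matplotlib 3.10.9.

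No test was run: with 1 group of 2 replicates, shares and medians are set beside those of all protein-coding genes. The members and gene lists were chosen with earlier results of these data known. Genes given with values were, in each family, up to 3 with the highest promoter, up to 2 with the most shared sites, and those with a promoter peak in 1 replicate or none. Other genes were named after their values were seen. Printed sequences needed at least 150 bases outside exons, a limit chosen after seeing the data, and none was taken from chromosome 18.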

Additional observations from a re-analysis of the deposited data

How the results depend on the processing

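The number of guidance genes open at the promoter in both replicates, 57 in the report, was 51 in the shorter peak list, 54 with peaks above the median value of their own list alone, 55 with a promoter of 500 bp, 60 with 2500 bp and 59 with the comprehensive annotation, an alternative chosen after seeing the data. The share of all protein-coding genes, 62.6% in the report, was 57.6%, 57.7%, 61%, 65.4% and 64.3% at these settings in the same order. With either replicate alone the number was 58 to 59, against 64.1% to 64.6% of all genes. Epha10 and Robo3 were the genes lost with a promoter of 500 bp. The number with a shared site outside promoters, 55 against 56.4% of all genes, ranged from 46 in the shorter list, against 40.9%, to 63 with 50 kb on each side, against 81.4%.

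The median number of such sites, 3 against 1 over all genes, moved with the setting. It was 2 against 0 in the gene body alone, in the shorter list and with those stronger peaks alone, 6 against 3 with 50 kb on each side, and 2.5 against 1 with the comprehensive annotation. With either replicate left out it was 4.5 to 5 against 1, since peaks of the other replicate were then not required. It stayed at 3 with a peak's centre required in the window and with an overlap of at least 50% of the shorter peak. No paired analysis was possible because there was 1 group.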
